A study of Mus musculus with 3 samples.

Results

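A set of droplet barcodes that carried transcripts of both epithelium and macrophages was examined in sorted mouse fetal lung. Barcodes were chosen by their measured counts of 4 genes: a barcode belonged to the set when it held at least 10 unique molecular identifiers (UMIs, counted molecules) over C1qa, C1qb and C1qc together and at least 10 UMIs of Epcam. Barcodes under 1000 UMIs or 500 genes, or over 10% in mitochondrial UMIs, were left out, and 325 of the remaining 9557 met the rule. They were 152 of 3400 barcodes in Epcam+ Icam+ replicate 1, 128 of 3167 in Epcam+ Icam+ replicate 2 and 45 of 2990 in the Epcam+ library. Macrophage barcodes were those with at least 20 C1q UMIs and at most 5 Epcam UMIs (438, 427 and 48 in the same order of libraries). Epithelial barcodes had at least 10 Epcam UMIs and fewer than 10 C1q UMIs (1904, 1696 and 2358). The 4 rule genes chose the barcodes, so their values are given as a description without a test.

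The samples were 3 single-cell RNA libraries made with 10x Genomics droplets from lungs of C57/B6 embryos at E14.5. No treatment or mutant allele is named in the labels. Embryos came from 2 females, and the lungs were pooled before dissociation with Dispase II, Collagenase A and DNase and red blood cell lysis. Cells were stained for Epcam and Icam1 and with DAPI, and were sorted as Epcam+ Icam+ (2 libraries) or Epcam+ (1 library). Whether the libraries came from separate pools, and whether the sort used a gate against cell pairs, is not given in the sources used here, so differences between libraries may be technical. The files held 4739, 4531 and 3697 barcodes and between 67843828 and 84460347 UMIs per library. The Epcam+ library had another gene table, few macrophage barcodes and no replicate, so it stood apart from the others in ways that cannot be told apart from the sort.

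C1qa, C1qb and C1qc encode the chains of complement component C1q, and tissue macrophages are a main source of them. The 3 genes lie side by side on chromosome 4 (mm10 4:136895917-136898803, 4:136880129-136886187 and 4:136889804-136893065, in the order C1qa, C1qb, C1qc). Epcam (17:87635979-87651129) encodes an adhesion molecule of epithelial cells. The fetal lung at this stage holds a branching epithelium, with distal tips marked by Sox9 and Sftpc and airways marked by Sox2, and macrophages that lie in the surrounding tissue. A droplet that captures a pair of cells gives 1 barcode with the RNA of both. A macrophage that has engulfed epithelial material, and free RNA in the suspension, are other known ways for 1 barcode to hold both transcripts.

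No doublet caller was run and no barcode was removed as a doublet, because barcodes with both transcripts were the subject. The 16-base cell barcodes of 6 of the 325 are printed because they identify the droplets behind the values. They are the barcode of median depth in each library, and the one in which the smaller of the C1q and Epcam counts was largest.
Epcam+ Icam+ replicate 1, median depth: agtctccagttcatgc
Epcam+ Icam+ replicate 1, largest smaller count: caaccaatcatgggag
Epcam+ Icam+ replicate 2, median depth: cagatactcaaaggta
Epcam+ Icam+ replicate 2, largest smaller count: agatagagtaacacct
Epcam+, median depth: gggcatcgttactgac
Epcam+, largest smaller count: ctcattatccgcaagc

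The barcode agtctccagttcatgc held 40269 UMIs, with 126 of C1q and 18 of Epcam. In caaccaatcatgggag the total was 111092 UMIs, with 243 of C1q and 129 of Epcam. The barcode cagatactcaaaggta held 39506 UMIs, with 194 of C1q and 21 of Epcam. These 3 droplets carried C1q far above its threshold, while Epcam in those of median depth was nearer to it. In agatagagtaacacct there were 147 C1q and 141 Epcam UMIs among 91962. The Epcam+ barcodes gggcatcgttactgac and ctcattatccgcaagc held 215 and 73 C1q UMIs, with 36 and 74 Epcam UMIs, in totals of 45472 and 84621. None of the 325 barcode sequences occurred in another library, whereas 3, 4 and 1 of all barcodes in the files did. The barcodes of the Epcam+ library began with 219 different runs of 4 bases, against 246 in each of the others, so its list of barcodes may be another one. A difference in chemistry, if there was one, cannot be told apart from the sort.

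The levels of the rule genes are given as a description, since the thresholds of every class act on them. The median C1q count was 158, 156 and 124 UMIs in barcodes with both transcripts and 154, 157 and 181 in macrophage barcodes, and it was 0 in epithelial barcodes of each library. The median Epcam count was 24, 19 and 23 in barcodes with both transcripts and 23, 24 and 29 in epithelial barcodes, against 0, 0 and 2 in macrophage barcodes. The label was then checked against markers that the rule did not use. The 17 other genes of the macrophage list summed to 15575, 17825 and 11091 CPM (UMIs scaled to a total of 1000000), between 31265, 31118 and 26733 CPM in macrophage barcodes and 129, 100.05 and 122 CPM in epithelial barcodes. The 14 other epithelial genes summed to 2550.5, 2367 and 2531 CPM, against 286, 302 and 552 CPM in macrophage barcodes and 4061, 3993 and 3678 CPM in epithelial barcodes. Both lists thus lay between the classes in every library.

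**Figure D1:**
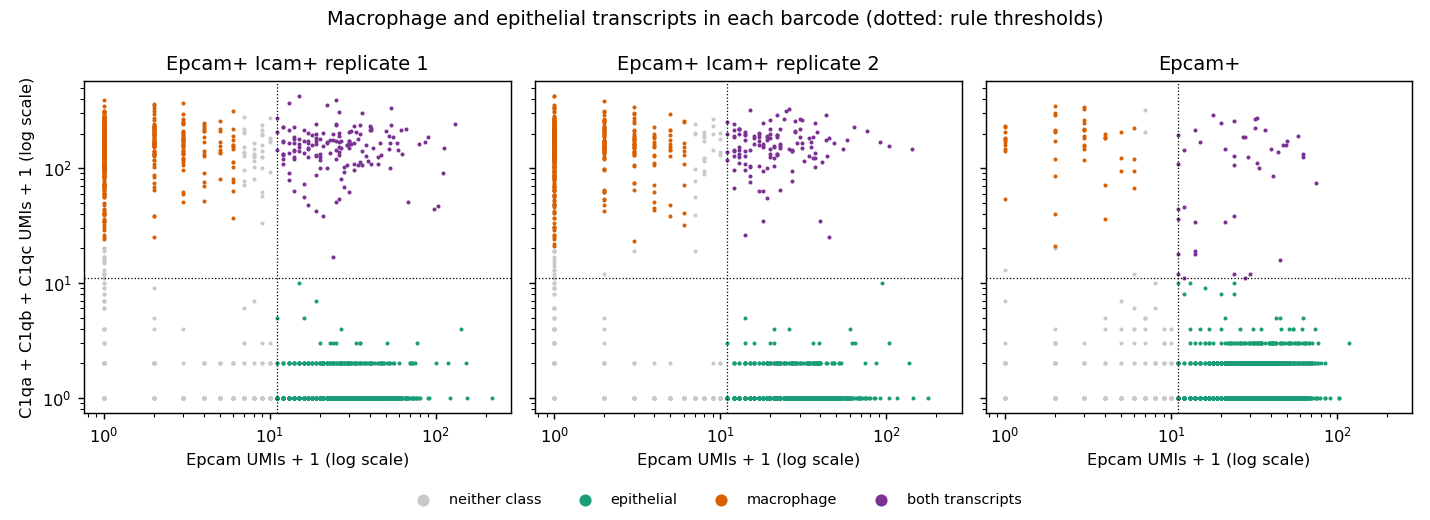
C1q UMIs plus 1 against Epcam UMIs plus 1 in each kept barcode of the 3 libraries, both on a log scale, with the rule thresholds dotted. Barcodes with both transcripts (purple) form a band at macrophage levels of C1q in the Epcam+ Icam+ libraries, and a looser group in the Epcam+ library.

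The thresholds cut a gap on the C1q axis and a slope on the Epcam axis. Among barcodes with at least 10 Epcam UMIs, those with 3 to 9 C1q UMIs, just outside, numbered 6, 5 and 24, and those with 10 to 19, just inside, numbered 1, 0 and 9. Those with 100 or more C1q UMIs numbered 129, 111 and 27. Among barcodes with at least 10 C1q UMIs, those with 6 to 9 Epcam UMIs numbered 37, 25 and 2 and those with 10 to 14 numbered 32, 37 and 14. The Epcam+ library thus differed in holding barcodes just above the C1q threshold. Of its 45, 9 had 10 to 29 C1q UMIs and a median depth of 22317 UMIs, while the other 36 had a median of 51094.5. In the Epcam+ Icam+ libraries 1 and 2 barcodes fell in that range.

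The share of barcodes with both transcripts was 4.47% (exact 95% interval 3.80 to 5.22%), 4.04% (3.38 to 4.79%) and 1.51% (1.10 to 2.01%). The difference of the Epcam+ share from the mean of the Epcam+ Icam+ libraries was -2.75 percentage points, and the intervals cover counting error only. Macrophage barcodes made up 12.9%, 13.5% and 1.61% of the same libraries. Barcodes with both transcripts were 23.6%, 21.5% and 45.5% of all barcodes with at least 10 C1q UMIs. Of barcodes with at least 10 Epcam UMIs they were 7.39%, 7.02% and 1.87%. The order of the libraries therefore turned with the denominator. With 1 Epcam+ library these shares were not tested between the sorts.

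These numbers were set beside the pairs that random loading would give. If cells of the kept barcodes had paired at random, 31.0%, 28.0% and 59.4% of kept barcodes would have had to hold a pair to give the observed numbers. These rates use the shares of macrophage and epithelial barcodes after the sort on Epcam. Whether the sort kept lone cells and pairs alike was not tested. A nominal rate of 0.8% for each 1000 barcodes corresponds to 2.72%, 2.53% and 2.39% and to 13.3, 11.6 and 1.81 macrophage and epithelial pairs. The observed 152, 128 and 45 were above these in every library. Another pair of lineages could be counted in the same way, using barcodes with collagen transcripts. Mesenchymal barcodes numbered 6, 8 and 24, barcodes with epithelial and mesenchymal transcripts 1, 0 and 3, and those with macrophage and mesenchymal transcripts 0, 0 and 0. These counts are too small to set a pairing rate for the mesenchyme. The number of cells loaded, and clumps that survived dissociation, were not tested.

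Barcodes with both transcripts were deep. Their median depth was 40556, 39539.5 and 45472 UMIs, against 22629.5, 23567 and 25135 in macrophage barcodes and 22027, 22508 and 29004.5 in epithelial barcodes. Summing the UMIs of each macrophage barcode with each epithelial barcode of the same library, called pairings here, gave medians of 46150, 47160 and 54663. The medians were therefore 0.879, 0.838 and 0.832 of a full sum, with a mean of 0.850 ± 0.0254 (SD, n = 3 libraries). All 3 libraries fell below the sum, and the exact two-sided sign-flip permutation test gave p = 0.25, the smallest p that 3 libraries allow. Thresholds on raw UMIs favour deep barcodes, so depth is not fully independent of the rule.

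The number of genes per barcode lay nearer to the pairings than the number of UMIs. Its median was 6267, 6017 and 6091, against 6413, 6423 and 6574 for pairings, which is 0.977, 0.937 and 0.927 of the sum. Of the barcodes with both transcripts, 69.7%, 66.4% and 62.2% were deeper than the 90th percentile of macrophage barcodes, and 68.4%, 60.9% and 42.2% were deeper than that of epithelial barcodes. The depth ratio depended on the thresholds: with at least 20 UMIs on both axes its mean was 1.02, and with at least 5 it was 0.745. The median mitochondrial share was 3.18%, 3.03% and 2.13%, between those of macrophage barcodes (3.47%, 3.49% and 2.04%) and epithelial barcodes (2.85%, 2.81% and 2.16%) in every library.

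**Figure D2:**
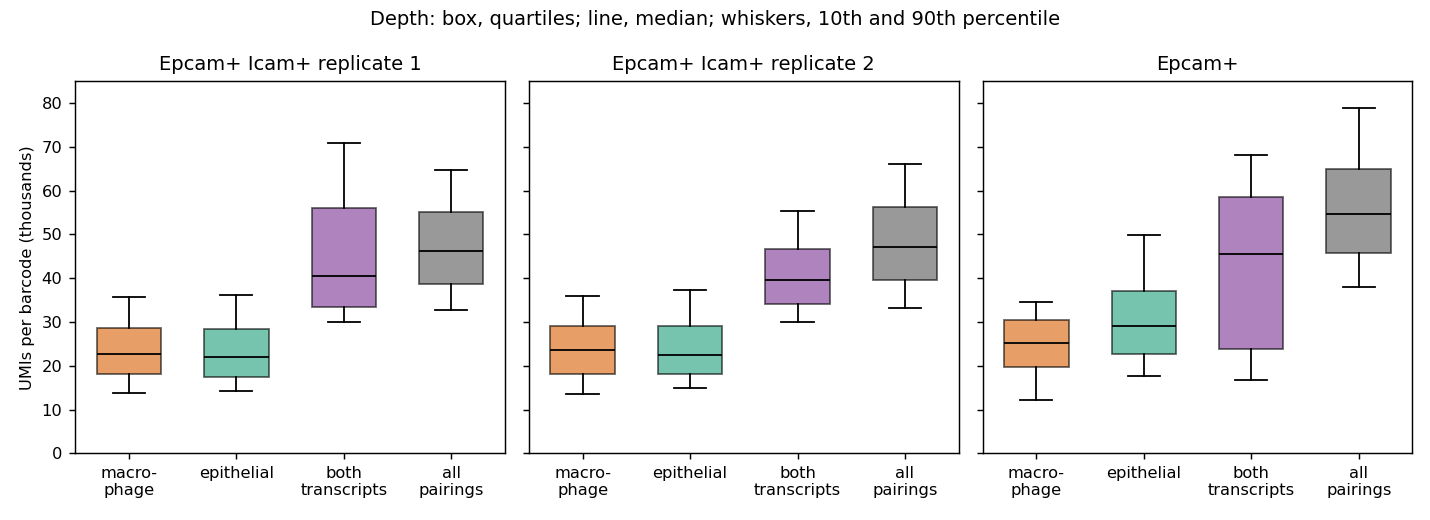
UMIs per barcode in macrophage barcodes, epithelial barcodes, barcodes with both transcripts and all pairings of the first 2 kinds. Boxes span the quartiles, lines mark medians and whiskers the 10th and 90th percentiles. Barcodes with both transcripts have medians of 39539.5 to 45472 UMIs, below the 46150 to 54663 of pairings.

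The rest of the transcriptome was fitted as a mixture of the 2 profiles of the same library, leaving out the 4 rule genes. The macrophage profile accounted for 49.4%, 55.5% and 37.2% of the summed RNA (mean 47.4 ± 9.30, SD, n = 3). Mean depths of macrophage and epithelial barcodes alone would give 49.5%, 49.1% and 44.0%. The fitted share was close to that value in Epcam+ Icam+ replicate 1, above it in replicate 2 and below it in the Epcam+ library.

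Single barcodes were mixed as well. Fitted one by one, the macrophage part had a median of 54.0%, 57.4% and 34.0%, and it lay between 25 and 75% in 127 of 152, 115 of 128 and 29 of 45 barcodes. In macrophage barcodes 16, 24 and 3 fell in that range. Of the 476, 424 and 472 epithelial barcodes sampled for the same fit, 3, 2 and 0 did. In UMIs, the median macrophage part was 22490, 22874 and 18996, beside the 22629.5, 23567 and 25135 UMIs of whole macrophage barcodes. The median epithelial part was 17353, 15815 and 23976 UMIs, beside 22027, 22508 and 29004.5. In the Epcam+ Icam+ libraries the macrophage part was near the depth of a whole macrophage barcode and the epithelial part below that of an epithelial one. Both parts were below in the Epcam+ library. The 9 Epcam+ barcodes with 10 to 29 C1q UMIs had a median macrophage part of 13.6%, against 42.2% in the other 36.

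Between the classes there was no empty space on the Epcam side. Barcodes with at least 20 C1q UMIs and 6 to 9 Epcam UMIs, which belong to no class, had a median macrophage part of 75% (n = 37) and 74.1% (n = 24) in the Epcam+ Icam+ libraries. It was 89.4% in the 2 such Epcam+ barcodes. Their median depth was 30594, 29686.5 and 37597.5 UMIs.

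**Figure D3:**
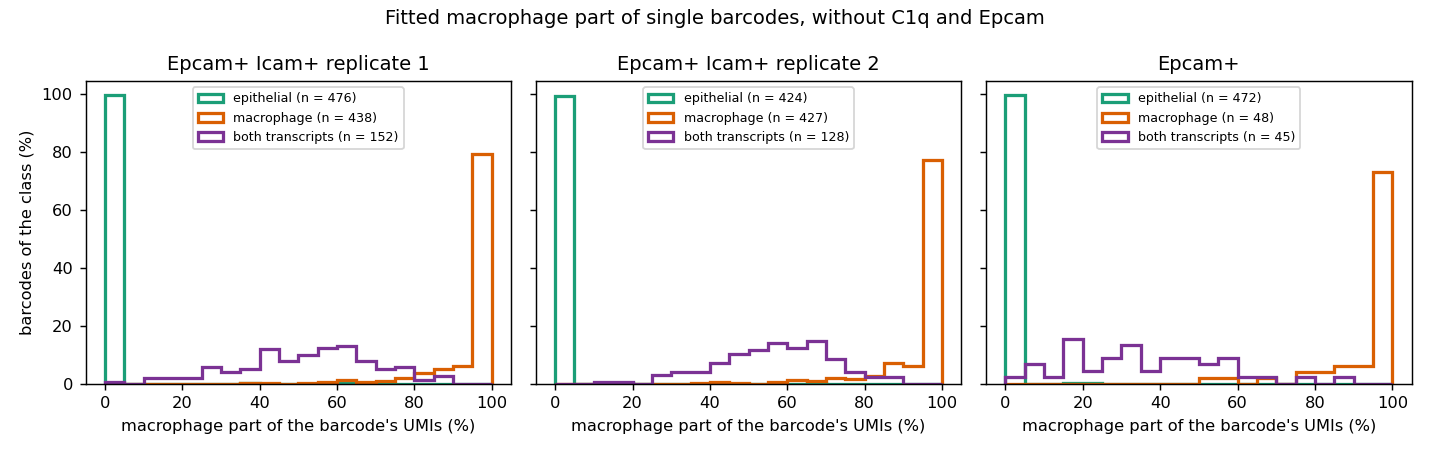
Share of barcodes of each class (vertical axis, percent) by the fitted macrophage part of their UMIs (horizontal axis, percent). Epithelial and macrophage barcodes sit at the ends, and barcodes with both transcripts are spread between, with 127 of 152, 115 of 128 and 29 of 45 from 25 to 75%.

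Sex-linked transcripts gave a measure that the rule did not use. Xist, an RNA of the X chromosome made in female cells, and the Y-linked genes Ddx3y, Eif2s3y, Kdm5d and Uty are not normally abundant in the same embryonic cell. Lungs of several embryos were pooled, so a pair of cells could come from embryos of different sex. At least 2 Xist UMIs and at least 2 Y-linked UMIs were found in 38 of 152 barcodes with both transcripts (25%, exact 95% interval 18.3 to 32.7%), 41 of 128 (32.0%, 24.1 to 40.9%) and 5 of 45 (11.1%, 3.71 to 24.1%). In macrophage barcodes the share was 1.37%, 0.937% and 0%, where 0 of 48 allows up to 7.40% by the exact interval. In epithelial barcodes it was 2.15%, 1.36% and 5.85%. The barcodes with both transcripts were above both other classes in each library, although in the Epcam+ library the intervals overlapped.

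Random pairings of a macrophage and an epithelial barcode gave 25.4%, 24.5% and 27.0%. The observed shares differed from these by -0.36, 7.51 and -15.9 percentage points, with a mean of -2.90 ± 11.9 (SD, n = 3), and the exact two-sided sign-flip permutation test gave p = 0.75. In the Epcam+ Icam+ libraries the pairings' share lay inside the counting interval of the observed share, and in the Epcam+ library it lay above it. With at least 1 UMI of each kind the Epcam+ values were 51.1% observed and 46.7% in pairings, so the direction there turned with the UMI minimum. The Epcam+ library had few Y-linked UMIs, with a summed level of 19.4 CPM against 102 CPM in Epcam+ Icam+ replicate 1 and 100.05 CPM in replicate 2, in barcodes with both transcripts. None of its 9 barcodes with 10 to 29 C1q UMIs had both kinds of transcript.

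**Figure D4:**
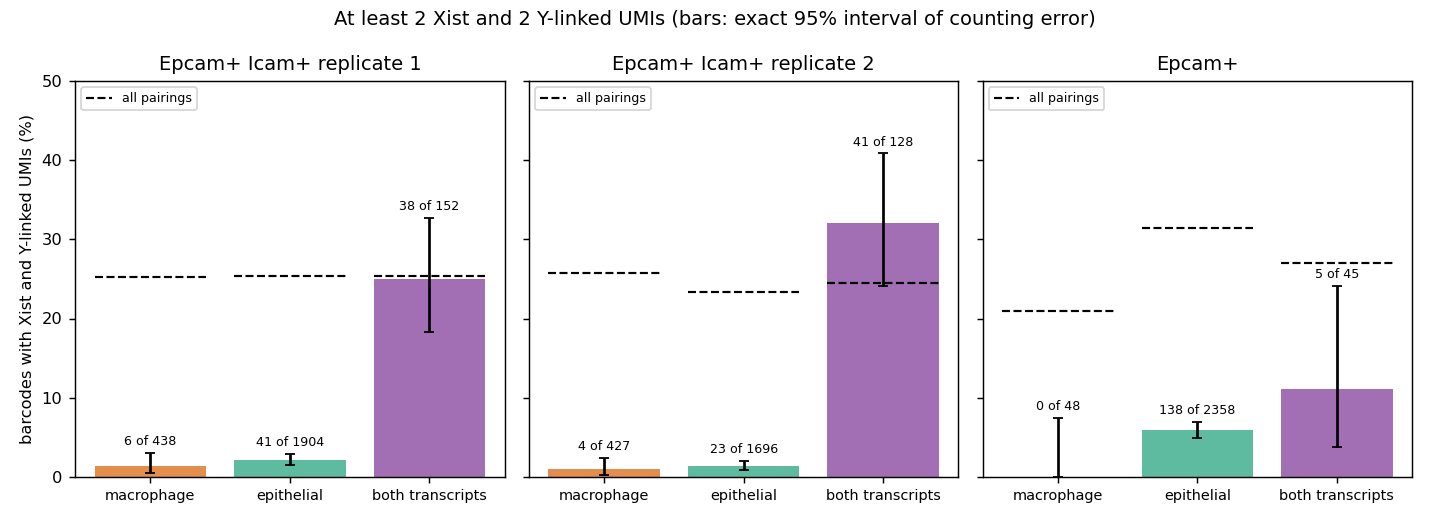
Share of barcodes (percent) with at least 2 Xist and at least 2 Y-linked UMIs in each class, with exact 95% intervals of counting error. Dashed lines give the share over pairings: macrophage with macrophage, epithelial with epithelial, and macrophage with epithelial over the last bar. The bar for both transcripts is near its line in the Epcam+ Icam+ libraries (25% and 32.0%) and below it in the Epcam+ library (11.1%).

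Summed counts of the barcodes with both transcripts were then compared, gene by gene, with the fitted sum of the same library at the same total. By the quasi-likelihood test of edgeR, with library as a block and Benjamini-Hochberg adjustment, 223 of 11851 genes differed at 0.05, which is 1.88% of the genes tested. Higher than the sum were 95 (0.802%) and lower were 128 (1.08%), and the median log2 difference over all genes was 0.00. Without the rule genes, of 17 macrophage genes 1 rose and 0 fell (median log2 difference 0.03). Of 14 epithelial genes 0 rose and 0 fell (median 0.13), and of 19 lysosomal genes 0 rose and 0 fell (median 0.04). The weights of the sum were fitted to all other genes, these lists included, so nearness of their levels to it is partly built in. Even so, the 14 epithelial genes summed to 2550.5, 2367 and 2531 CPM against 2197, 1945 and 2515 CPM in the sum. They were above it in every library, though by little in the Epcam+ library. Apoe, a lipid carrier abundant in macrophages, measured 8654, 10031 and 5792 CPM and differed from the sum by a log2 of -0.000518 (SE 0.054). Krt8, a keratin of simple epithelia, measured 462, 443 and 387 CPM against 391, 346 and 355 CPM in the sum, a log2 departure of 0.20 (edgeR adjusted p = 0.0882). In the Epcam+ Icam+ libraries the sum is built from many barcodes and has little counting error of its own. The macrophage side of the Epcam+ sum came from 48 barcodes and 1200030 UMIs, fewer than the 2006708 UMIs of its barcodes with both transcripts. With 2 residual degrees of freedom these calls rest on a low estimate of spread (biological coefficient of variation 3.60%). With DESeq2 11 genes passed and with no filter on low counts 0 passed, so single calls rest on the choice of test and filter.

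Icam1, the surface marker of the sort, did not depart from the sum. It measured 158, 157 and 135 CPM, against 136, 131 and 146 CPM in the sum, with a log2 departure of 0.10 (SE 0.0627, edgeR adjusted p = 0.589). Epithelial barcodes carried 200, 195 and 163 CPM and macrophage barcodes 70.9, 79.3 and 118 CPM. Of 9 tested genes of leukocyte adhesion 0 rose and 0 fell (median 0.00). Of 16 phagocytosis genes 2 rose and 0 fell (median -0.00284), where 0.802% of all genes tested rose. The 20 genes of that list summed to 1247, 1379 and 720 CPM, against 1109, 1188 and 696 CPM in the sum, so they lay above it in every library. This was not particular to that list. The 17 macrophage genes summed to 15575, 17825 and 11091 CPM against 15503, 17307 and 10025 CPM, and the 14 epithelial genes were above the sum too. The 2 phagocytosis genes that rose were Stab1 and Cd36, a pair of scavenger receptors, named after their values were seen. Stab1 measured 191, 220 and 83.2 CPM against 149, 168 and 82.2 CPM in the sum (log2 difference 0.26, edgeR adjusted p = 0.0473). Cd36 measured 115, 129 and 22.4 CPM against 83.0, 76.8 and 33.9 CPM, so the Epcam+ library went the other way (log2 difference 0.44, edgeR adjusted p = 0.0318). Leaving out either Epcam+ Icam+ library ended both calls, with adjusted p of 0.736 and 0.607 for Stab1 and 0.123 and 0.454 for Cd36. Cd68, a lysosomal glycoprotein of macrophages named on the same terms, was higher in all 3 libraries (124, 146 and 169 CPM against 105, 114 and 134), with a log2 departure of 0.25 (edgeR adjusted p = 0.047), and without Epcam+ Icam+ replicate 1 or 2 it did not pass (adjusted p = 0.229 and 0.400).

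Some airway genes were higher than the sum. Sox2, a transcription factor of the proximal airway, measured 17.9, 18.7 and 16.9 CPM, against 5.53, 5.81 and 11.96 CPM in the sum. Its level was above that of epithelial barcodes (7.95, 8.77 and 16.2 CPM) and of macrophage barcodes (2.99, 3.53 and 4.17 CPM) in every library. The log2 difference was 1.40 (SE 0.165, edgeR adjusted p = 0.000262), and Sox2 was named after its values were seen. At least 3 Sox2 UMIs were found in 11.8%, 11.7% and 6.67% of barcodes with both transcripts and in 2.89%, 3.04% and 8.56% of pairings. The Epcam+ library, in which Sox2-bearing epithelial barcodes were more frequent, did not share this difference in shares. Of 6 tested airway genes 2 rose and 1 fell (median 0.32).

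Among the other genes that rose were a pair of claudins and the cell cycle inhibitor Cdkn1c. Cldn10, a tight junction claudin, measured 163, 147 and 116 CPM against 101, 89.2 and 80.7 CPM in the sum, a log2 departure of 0.61 (SE 0.0584, edgeR adjusted p = 3.4e-05). Cldn4, another claudin, named after its values were seen, measured 112, 89.0 and 91.2 CPM against 69.7, 58.3 and 78.3 CPM, a log2 departure of 0.52 (SE 0.0692, edgeR adjusted p = 0.000792). Cdkn1c measured 1334, 1010.2 and 688 CPM against 834, 720 and 530 CPM, a log2 departure of 0.47 (SE 0.0547, edgeR adjusted p = 0.000236). Claudins did not all do so: Cldn6 (0.08, edgeR adjusted p = 0.67) and Cldn7 (0.13, edgeR adjusted p = 0.358) did not pass. Cldn10, Cldn4 and Cdkn1c were higher in every library, and Cldn10 and Cdkn1c also passed with DESeq2. The other named genes that rose were Homer2 (a postsynaptic scaffold protein, 0.55), Hspa4l (a heat shock protein, 0.65), Fbln5 (an elastic fibre protein, 0.50), Cavin2 (a caveolar protein, 0.50), Kcnk2 (a potassium channel, 0.48), Zswim8 (0.42), Aldh1a7 (an aldehyde dehydrogenase, 0.42), Ctxn1 (0.41) and Tgfb3 (a growth factor, 0.40), as log2 differences. Without Epcam+ Icam+ replicate 1, Fbln5, Cavin2, Kcnk2, Zswim8, Aldh1a7, Ctxn1 and Tgfb3 did not pass, and without replicate 2, Hspa4l, Ctxn1 and Tgfb3 did not.

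A mixture of 3 profiles was then fitted, chosen after the data had been seen, by splitting epithelial barcodes at 2 Sox2 UMIs. Of the epithelial part of barcodes with both transcripts, 33.8%, 25.7% and 35.3% was assigned to the Sox2-bearing profile. In epithelial barcodes this profile held 4.00%, 4.28% and 10.5% of the RNA (57, 67 and 217 barcodes). Against this sum of 3 profiles 83 genes differed, 14 higher and 69 lower. Cldn10 no longer passed (log2 difference 0.16, edgeR adjusted p = 0.322), nor did Cdkn1c (0.02, adjusted p = 0.965), while Cldn4 did (0.32, adjusted p = 0.0421). Sox2 itself was lower than the sum of 3 profiles (-0.61), and it had been used to choose that profile. The airway gene Scgb3a2, a secretoglobin of club cells, did not depart from the first sum (112, 94.99 and 69.8 CPM against 91.5, 119 and 39.9 CPM, log2 difference 0.03, edgeR adjusted p = 0.973) and was below the sum of 3 profiles (-1.33). Tspan8, a tetraspanin in the airway list, fell against the first sum (-0.43, edgeR adjusted p = 0.00653) but not without Epcam+ Icam+ replicate 1 (adjusted p = 0.480). Not every airway gene therefore moved with Sox2.

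Insm1, a transcription factor of pulmonary neuroendocrine cells, was higher than the sum at a low level. It measured 4.68, 3.75 and 1.49 CPM, against 0.142, 0.749 and 0.997 CPM in the sum. These were 33, 20 and 3 UMIs, so the gene entered the test through the barcodes with both transcripts. The gap was wide in both Epcam+ Icam+ libraries and narrow in the Epcam+ library. That entry favours a higher level in them, so the log2 difference of 2.86 is given without a test. The gene did not pass with DESeq2, nor with no filter on low counts (edgeR adjusted p = 0.274). Against the sum of 3 profiles its log2 difference was 1.42, which did not pass either (edgeR adjusted p = 0.139).

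Few alveolar and tip genes passed the test, although several were found in fewer barcodes than in pairings. Of 9 distal tip genes 0 rose and 0 fell (median -0.12). Sftpc, the surfactant protein C gene of distal epithelium, measured 2733, 2349.8 and 1739 CPM against 3144, 3032 and 1655 CPM in the sum, a log2 departure of -0.22 (edgeR adjusted p = 0.171). At least 3 Sftpc UMIs were found in 63.8%, 57.8% and 93.3% of barcodes with both transcripts and in 81.5%, 80.6% and 99.3% of pairings. For Sox9, the transcription factor of the tips, the shares were 13.8%, 10.2% and 35.6% against 15.7%, 20.5% and 34.3%. For Hopx, a gene of alveolar type 1 cells, they were 46.1%, 42.2% and 0% against 56.1%, 53.5% and 2.42%, where 0 of 45 allows up to 7.87% by the exact interval. All 3 genes were thus below the pairings in both Epcam+ Icam+ libraries, although for Sox9 in replicate 1 the pairings' share lay inside the counting interval (8.76 to 20.3%). These shares also move with depth, which was lower than that of pairings. Of 7 alveolar type 1 genes 0 rose and 1 fell (median -0.29), which was Akap5, a kinase anchoring protein (-0.32, edgeR adjusted p = 0.0323). Of 5 alveolar type 2 genes 0 rose and 1 fell (median -0.18), which was Napsa, an aspartic protease. Napsa measured 20.1, 26.0 and 12.5 CPM against 32.3, 37.5 and 5.98 CPM, so the Epcam+ library went the other way (-0.60, edgeR adjusted p = 0.029). Neither gene passed without Epcam+ Icam+ replicate 1 (adjusted p = 0.819 for Akap5 and 0.342 for Napsa).

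**Figure D5:**
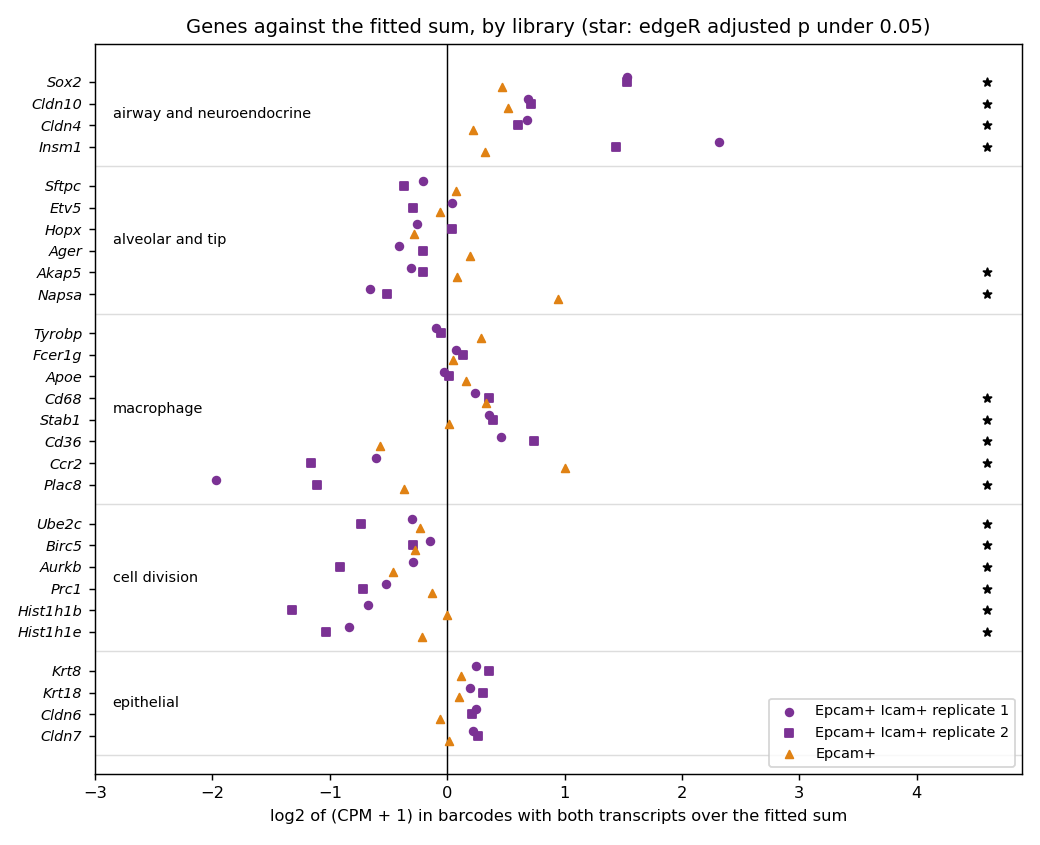
Log2 of (CPM + 1) in barcodes with both transcripts minus that of the fitted sum, for named genes in 5 groups. Each library has its own symbol and a star marks an edgeR adjusted p under 0.05. A star at Insm1 is not read, since that gene entered the test through the barcodes with both transcripts. Sox2, Cldn10 and Cldn4 lie right of 0 in all 3 libraries, Fcer1g and Apoe lie near 0, and cell division genes lie left of 0 in most libraries.

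Several cell division genes were lower than the sum. Of 20 G2/M genes 0 rose and 11 fell (median -0.33), whereas of 20 S phase genes 0 rose and 1 fell (median -0.16). Against the sum of 3 profiles 5 of the 20 G2/M genes fell (median -0.27), and with DESeq2 0 of them passed. Ube2c, a ubiquitin-conjugating enzyme of mitosis, measured 227, 150 and 308 CPM against 280, 250 and 363 CPM in the sum, a log2 departure of -0.48 (SE 0.0827, edgeR adjusted p = 0.0061). Prc1, a spindle midzone protein, fell by 0.62 on the log2 scale (edgeR adjusted p = 0.000672) and Aurkb, a mitotic kinase, by 0.58 (adjusted p = 0.0086). All 3 were lower in every library. Top2a, a topoisomerase of dividing cells, did not pass (-0.38, edgeR adjusted p = 0.0647). At least 3 Top2a UMIs were found in 48.0%, 32.8% and 66.7% of barcodes with both transcripts, and in 57.6%, 55.5% and 71.8% of pairings.

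Replication-dependent histone genes, whose messages mostly lack a poly(A) tail, fell as well. Of 53 histone genes tested 0 rose and 27 fell (median -0.81), 4 passed with DESeq2, and this group was formed after the values were seen. Hist1h1e, a linker histone, fell by 0.98 on the log2 scale (SE 0.0762, edgeR adjusted p = 1.37e-05) and also passed with DESeq2. Hist1h1b measured 403, 249 and 26.9 CPM against 646, 625 and 26.9 CPM in the sum. The Epcam+ library held far less histone RNA than the others, and its Hist1h1b level equalled the sum. Hist1h2ab, Hist1h4h, Hist1h3c, Hist1h1a and Hist1h2ae fell by 1.26, 1.02, 0.96, 0.92 and 0.64. A pair of transcripts that overlap ribosomal RNA sequence moved in the same libraries. Gm42418, named after its values were seen, measured 12987, 15518 and 188 CPM, against 27870, 26780 and 142 CPM in the sum (-0.75, edgeR adjusted p = 0.0257). In both Epcam+ Icam+ libraries it was also below macrophage (28750 and 27461 CPM) and epithelial barcodes (27007 and 25928 CPM). AY036118 measured 460, 574 and 38.9 CPM against 1177, 1175 and 41.4 CPM (-1.19, edgeR adjusted p = 2.7e-05). The part of such RNA in the histone and cell division results was not tested.

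Several transcripts of other blood cells were lower than the sum. Cpa3, Cma1 and Hdc, genes of mast cells and basophils, entered the test only through the sum. In barcodes with both transcripts Cpa3 had 0, 0 and 1 UMIs, Cma1 1, 0 and 6, and Hdc 1, 1 and 0, so no count of calls is given for their list. Cpa3 was listed at 0, 0 and 0.498 CPM, against 6.80, 1.69 and 7.48 CPM in the sum. The sum takes these from a few barcodes, since Cpa3 was at 12.7, 0 and 0.833 CPM in macrophage and 1.02, 3.65 and 11.1 CPM in epithelial barcodes. Globin genes had few UMIs too, and Hbb-bs, an adult beta globin, measured 1.13, 1.69 and 14.9 CPM against 2.27, 21.5 and 47.3 CPM in the sum. Hbb-bt, another adult beta globin, did not pass (log2 difference -0.21, edgeR adjusted p = 0.819). In Epcam+ Icam+ replicates 1 and 2 Hbb-bt was slightly above the sum (1.42 and 8.06 CPM against 1.28 and 7.12 CPM). In the Epcam+ library it was below the sum (per-library log2 difference -0.70). Plac8, a gene of monocytes and other leukocytes, measured 8.22, 9.56 and 41.4 CPM against 35.1, 21.7 and 53.8 CPM, a log2 departure of -1.35 (SE 0.211, edgeR adjusted p = 0.00311). Ccr2, the receptor that marks monocytes, measured 24.7, 19.9 and 23.9 CPM against 38.1, 45.5 and 11.5 CPM, lower in both Epcam+ Icam+ libraries and higher in the Epcam+ library (-0.78, edgeR adjusted p = 0.0369). The chemokine Ccl6 fell by 0.78, and without Epcam+ Icam+ replicate 1 it did not pass (adjusted p = 0.181).

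Other lists gave few calls. Of 18 immediate early genes 0 rose and 0 fell (median 0.05), and of 13 genes of apoptosis and p53 0 rose and 0 fell (median 0.02). Of 13 tested chemokine and cytokine genes 0 rose and 1 fell (median -0.11). Of 10 interferon and antigen presentation genes 2 rose and 1 fell (median -0.04). The 2 were H2-Aa and H2-Ab1, chains of major histocompatibility complex class II. H2-Ab1 measured 15.9, 5.81 and 21.4 CPM, against 6.53, 4.03 and 8.65 CPM in epithelial and 0.869, 2.94 and 0.833 CPM in macrophage barcodes. Its log2 difference to the sum was 1.67 (SE 0.203, edgeR adjusted p = 0.000317), and with at least 20 C1q and 20 Epcam UMIs it was -0.17. The rise was therefore not seen at those higher thresholds, at which 91, 62 and 25 barcodes remained. How many barcodes carried H2-Ab1 is not given here. Dcn, a proteoglycan of mesenchyme and the 1 gene of its list that was tested, rose (8.64, 5.62 and 1.495 CPM against 3.40, 2.44 and 1.495 CPM, log2 difference 1.15, edgeR adjusted p = 0.0086). No barcode with both transcripts reached 10 collagen UMIs. Lists for lymphoid, megakaryocytic, smooth muscle, endothelial and neural cells had between 1 and 3 genes tested and 0 called, and no mesothelial gene was tested.

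The departure from the sum was compared between the sorts by an interaction term in edgeR, with 1 residual degree of freedom. The single Epcam+ library is assumed there to vary like the others, so its own spread is not in the SE or p. Of 12255 genes tested 16 differed (0.131%), 13 with a higher departure in the Epcam+ library (0.106%) and 3 with a lower one (0.0245%). With RLE scaling 150 genes differed and with no filter on low counts 0, so these calls are weak. Lyz2, the lysozyme of macrophages and monocytes, measured 605, 769 and 905 CPM, in a library order in which macrophage barcodes held 1596, 1856.5 and 1447 CPM. Its departure was higher in the Epcam+ library by a log2 of 1.24 (SE 0.0541, edgeR adjusted p = 0.000289). Pf4, a chemokine of fetal macrophages, measured 1293, 1335 and 752 CPM, and its departure was lower by 0.50 (edgeR adjusted p = 0.0439). Genes of macrophages thus stood on both sides. The Epcam+ sum rests on 48 macrophage barcodes, and the part of that number in the result was not tested.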

How the data were processed

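The deposited values were UMI counts per gene and barcode, made by the authors. The submitters' processing notes name Cell Ranger 2.1.1 and the build mm10. Per the file headers, however, version 5.0.1 wrote the counts of both Epcam+ Icam+ libraries and version 3.0.2 those of the Epcam+ library. Their gene tables held 32285 and 31053 genes, and the 30406 Ensembl IDs in both were joined. The lowest depth of a deposited barcode was 500 UMIs, and free RNA was not removed. Barcodes were filtered on each library's own table.

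The members, gene lists and tests were chosen with earlier results of these data known. Mixtures were fitted by multinomial likelihood in Python 3.11.15 (scipy 1.17.1) over genes with at least 20 counts, without the 4 rule genes. Gene tests used edgeR 4.0.16 in R 4.3.3 (TMM, filterByExpr, quasi-likelihood, library as block, Benjamini-Hochberg 0.05) on counts summed per library against the fitted sum rounded to whole counts. DESeq2 1.42.0 was an alternative, beside other thresholds, barcode filters, scaling, parents and libraries left out. On simulated counts for 11828 genes, with 200 changed, the test of members against the fitted sum recovered 100% at a log2 change of 1 and of 2, with 6 false calls. The changed genes were drawn among abundant ones, and all genes were given 1 common spread. Recovery at low counts, and false calls where spread differs between genes, were therefore not tested. Named genes were the rule, sex-linked and sort genes, the 12 with the largest differences in each direction among called genes that averaged 20 CPM or more and went 1 way in all 3 libraries (globin, ribosomal protein and mitochondrial genes and gene models were passed over), and the 3 most abundant of each list. Other names were chosen after their values were seen. A CPM value is a count scaled to 1000000 UMIs of the summed barcodes, over the joined genes. Per-library log2 values used a pseudocount of 1 CPM. Exact binomial intervals and count limits cover counting error only. Coordinates are from GENCODE vM21 on mm10. Some genes are not reported here.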

Additional observations from a re-analysis of the deposited data

Results flagged for a closer look

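Genes are given here whose departure from the fitted sum differed between the Epcam+ library and the Epcam+ Icam+ libraries by the interaction test of edgeR (adjusted p under 0.05, 1 residual degree of freedom). With 1 Epcam+ library the test takes its spread from the other libraries, and the calls depend on scaling and filter. Values are log2 departures, Epcam+ minus Epcam+ Icam+. In the macrophage list the departure was higher in the Epcam+ library for Lyz2 (1.24), Tyrobp (0.445) and Apoe (0.25), and lower for Pf4 (-0.50). In other lists it was higher for Cd74 (1.27) and lower for the chemokine Ccl3 (-0.79). Among genes of no list it was higher for Lgals3 (1.74), Cd14 (1.42), Ifitm3 (1.18), Thbs1 (0.94), Cd52 (0.92), Cebpb (0.70), Malat1 (0.42), mt-Atp6 (0.28) and Actb (0.26), and lower for the elongation factor Eef2 (-0.46). Cd14 stood at 102 CPM in Epcam+ barcodes with both transcripts, against 122 CPM in macrophage barcodes and 2.73 CPM in epithelial barcodes of that library. In the Epcam+ Icam+ libraries Cd14 stood at 236 and 257 CPM, against 529 and 571 CPM in macrophage barcodes. Lgals3 gave 93.2 CPM against 95.8 CPM in Epcam+ macrophage barcodes, and 155 and 168 CPM against 371 and 386 CPM in the Epcam+ Icam+ libraries. The Epcam+ library differs from both others in gene table and software version as well as in sort, and these cannot be told apart.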

How the results depend on the processing

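The comparison of members with the sum was paired, with library as a block. Without that block the fit called 0 genes (82 at an unadjusted p under 0.05). The sorts could not be paired with each other, since they share 1 replicate number. The 223 genes called became 277 with RLE scaling (all 223 among them), 0 with no filter (1360 unadjusted), 11 with DESeq2 (192 unadjusted), 408 with at least 5 C1q and 5 Epcam UMIs, 74 with at least 20 of each, 130 for a sum of 1 mean macrophage and 1 mean epithelial barcode, and 83 with 3 profiles, an alternative added after seeing the data that kept 72 of the 223. Leaving out a library gave 88 (Epcam+ Icam+ replicate 1) to 531 (Epcam+). The 16 genes between sorts became 150 with RLE scaling, 0 with no filter (672 unadjusted) and 9 with DESeq2 (77 unadjusted). The share difference of -2.75 points was -3.57 with at least 5 of each, -1.48 with at least 20, -3.26 with the stricter barcode filter and -3.18 on thinned barcodes. The depth ratio of 0.850 was 0.745, 1.02, 0.886 with at least 30 C1q UMIs (added after seeing the data) and 0.947 for genes. Log2 differences changed sign with 3 profiles for Aldh1a7 (-0.0535), Scgb3a2 (-1.33), Dcn (-0.22), Sox2 (-0.61) and Ccnd2 (-0.0471), and with at least 20 of each for H2-Aa (-0.33) and H2-Ab1 (-0.17). Of 57 called genes followed, 57 passed with RLE scaling, 51 without the Epcam+ library, 42 and 28 without Epcam+ Icam+ replicate 2 and 1, 24 with 3 profiles, 23 with at least 20 of each, 10 with DESeq2 and 0 with no filter. The cause of these changes was not tested. The 57 include genes that entered the test through 1 side only, among them Cpa3, Cma1, Hdc and Insm1. Of these, Cpa3, Cma1 and Hdc passed with DESeq2. For such genes, passing again is not read as support. The number of barcodes limits the Epcam+ library, with 45 members and 48 macrophage barcodes.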

Other observations

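Ccnd2, a cyclin of G1 that belongs to none of the lists, was higher than the fitted sum in all 3 libraries. It measured 287, 229 and 308 CPM against 195, 165 and 253 CPM, a log2 departure of 0.40 (SE 0.0562, edgeR adjusted p = 0.00118), and it passed with DESeq2 (adjusted p = 0.0296). With 3 profiles the difference was -0.0471. Of the 95 genes higher than the sum, 24 were above both macrophage and epithelial barcodes in every library, and of the 128 lower genes 7 were below both. Of the 95, 78 had the higher level in epithelial barcodes and 17 in macrophage barcodes. The same shares over all genes tested were not counted, so these counts describe the called genes only.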
